A study of Homo sapiens with 12 samples.

Results

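The genes described here encode the kinase mTOR, its partners in the 2 mTOR complexes, the TSC1 and TSC2 proteins that restrain it and the small GTPase RHEB that activates it. Members were chosen by gene name: MTOR, RPTOR, RICTOR, MLST8, DEPTOR, AKT1S1, MAPKAP1, TSC1, TSC2 and RHEB, which are 10 of the 20212 genes in the deposited count table, and all 10 names were found. Of these, 9 had enough reads to be tested and DEPTOR did not. PANC-1 cells, an established human pancreatic cancer line, were treated with DMSO, the vehicle, or with 50 nM rapamycin for 60 min. Ribosome footprints (RF, the stretches of mRNA that ribosomes protect from nuclease) and total RNA were sequenced from the same 3 cultures of each treatment, in 12 libraries. Translation efficiency (TE) is the RF level over the RNA level of a gene.

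mTOR works in a pair of protein complexes. In mTORC1 it is joined by RPTOR, which recruits substrates, and in mTORC2 by RICTOR and MAPKAP1, and mTORC1 promotes mRNA translation while mTORC2 phosphorylates AKT. RHEB in its GTP-bound form activates mTORC1, TSC1 and TSC2 together switch RHEB off, and rapamycin binds the protein FKBP1A and, with it, inhibits mTORC1. DEPTOR and AKT1S1, also called PRAS40, are inhibitory subunits, and MLST8 binds the kinase domain in both complexes.

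RF libraries held 278835 to 1574723 counted reads, and RNA libraries 78081241 to 94293744. The smallest RF libraries were DMSO 1 and rapamycin 3. Levels are given in CPM, which are counts relative to library size, after TMM scaling within each library type. A count of 0, which allows up to 3 reads, corresponds to at most 9.98 CPM in the smallest RF library and 2.04 CPM in the largest, for counting error only. DMSO RNA libraries 1 and 2 listed 16840 and 16858 genes with a read and the other RNA libraries 19751 to 19847. The part of this difference in the RNA and TE values below was not tested. The epithelial keratins KRT8, KRT18 and KRT19 were at 1326 to 1765 FPKM (fragments scaled to transcript length and library size) in total RNA, and the duct markers KRT7 and SOX9 at 9.83 to 12 and 20 to 22.5 FPKM. The acinar, endocrine, leukocyte and endothelial markers examined were at no more than 0.272 FPKM, and the fibroblast markers COL1A1 and LUM at 0.674 to 1.53 and at most 0.0738 FPKM. In bulk libraries such as these, fewer cells with an RNA and less of it per cell cannot be told apart.

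In brief, the RNA of the 9 tested members stayed within narrow limits after rapamycin, and the fitted difference in RF was largest for TSC1. TSC1 RF was 2.88 ± 3.07 CPM (SD, n = 3) in DMSO and 18.9 ± 9.90 CPM (n = 3) in rapamycin. It was the single member whose cultures did not overlap between treatments. Over all tested genes, RF did not overlap in this direction in 5.24% and in the other in 4.21%. RICTOR had a higher and RPTOR a lower TE in the fit, each resting largely on 1 culture. No member passed the adjusted threshold of 0.05 in TE, RF or total RNA (edgeR, Benjamini-Hochberg).

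Transcript starts are shown for the members on which the TE results turn, and for MTOR and RHEB beside them, since mRNAs that depend on mTORC1 most strongly, those of ribosomal proteins, begin with a C and a run of pyrimidines. The sequences come from the GENCODE annotation of GRCh37, for the isoform highest in these cells among those with at least 90% of the longest coding length, and the capitals mark the first 5 bases, where such a run would begin.
TSC1, chr9:135819974-135820003, minus strand: GTACGtccaagatggcggcgccctgtaggc
RICTOR, chr5:39074472-39074501, minus strand: GTTGTgactgaaacccgtcaatatggcggc
RPTOR, chr17:78518638-78518667, plus strand: GTCCTggcaatatggcgtcctccttgatgg
MTOR, chr1:11322579-11322608, minus strand: GCTCCcggcttagaggacagcggggaaggc
TSC2, chr16:2097990-2098019, plus strand: CCGGCggcgtcccggggccaggggggtgcg
RHEB, chr7:151216952-151216981, minus strand: GGGAGggtcatgacgcagcgagtttcagtc
Each stretch begins at the first base of exon 1 and lies in the 5′ untranslated region, except that the annotated start codon of RICTOR-202 falls within its stretch, at base 23. A start with C followed by at least 4 pyrimidines (C or T), on the coding strand, was found in 0 of the 9 tested members and in 557 of 12486 tested genes with an annotated start (4.46%). The annotated start need not be the one used in these cells, and no match says only that these letters are not there.

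In DMSO, footprints and RNA ranked the members differently, on scales that treat length differently. Exonic RF counts were divided by the longest annotated coding length, while FPKM is scaled to transcript length. For RHEB and MAPKAP1, most RNA came from isoforms with a shorter coding sequence than that length. The part of this in the ranks, percentiles and ratios below was not tested. Per kilobase of coding length, RF in DMSO was 76.4 ± 18.9 CPM for RHEB, 49.4 ± 20.2 for TSC2, 44.2 ± 28.5 for MLST8 and 41.0 ± 9.04 for AKT1S1 (SD, n = 3 each). Lower values were found for RPTOR (15.2 ± 13), MTOR (7.85 ± 2.64), MAPKAP1 (5.51 ± 4.79), RICTOR (2.27 ± 0.53) and TSC1 (0.824 ± 0.880 CPM per kb), and DEPTOR was at 0. In this order neighbouring members overlapped between cultures, except that each DMSO culture of AKT1S1 lay above each of RPTOR. The median over tested genes was 11.1 CPM per kb.

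Total RNA in DMSO, in the authors' FPKM, was 115 ± 3.65 for RHEB, 49.4 ± 0.995 for MAPKAP1, 30.8 ± 1.02 for MTOR, 28.7 ± 0.693 for MLST8 and 18.2 ± 0.515 for TSC2 (SD, n = 3). RPTOR followed at 14.8 ± 0.833, RICTOR at 12.4 ± 0.650, AKT1S1 at 11.5 ± 0.484, TSC1 at 9.30 ± 0.371 and DEPTOR at 0.678 ± 0.0770 FPKM. Only RICTOR and AKT1S1, neighbours in this order, overlapped. Among tested genes, TSC1 stood at percentile 45.6 in RNA and 4.22 in RF per kb, RICTOR at 53.0 and 14.8, MTOR at 77.1 and 41.1, and MAPKAP1 at 86.0 and 32.5. AKT1S1 lay the other way, at percentile 50.9 in RNA and 78 in RF per kb, as did TSC2, at 63.7 and 80.7. RHEB was high on both scales.

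**Figure D1:**
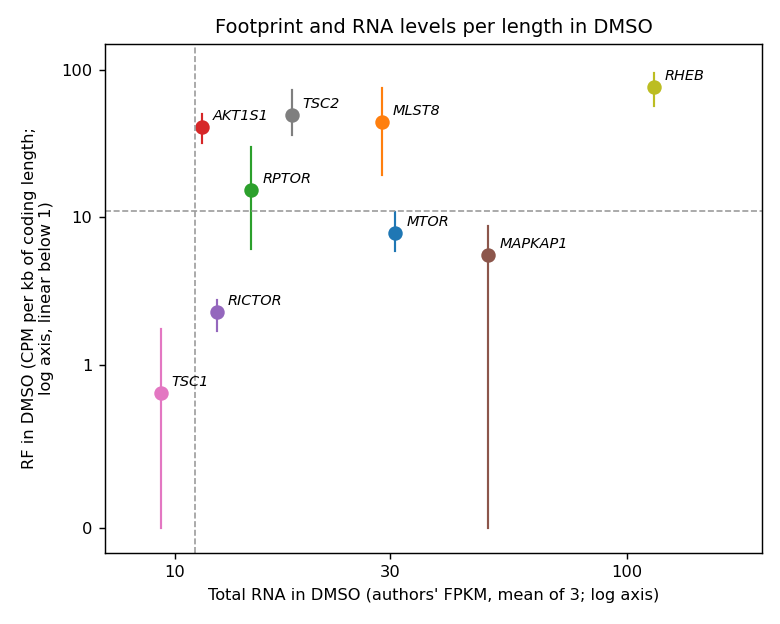
RF level in DMSO (CPM per kilobase of coding length, log axis that is linear below 1) against total RNA in DMSO (authors' FPKM, mean of 3 cultures, log axis) for the 9 tested members. Points are means of 3 cultures, vertical lines run from the lowest to the highest culture, and dashed lines are medians over tested genes (11.1 on both axes); TSC1, RICTOR, MTOR and MAPKAP1 lie below the RF median while MTOR and MAPKAP1 are well above the RNA median.

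Footprint ratios per length were compared within each culture for pairs of subunits. TSC2 exceeded TSC1 in RF per kb in each of the 5 cultures where TSC1 had a read. The ratio was 50.2 in DMSO 2, 22.5 in DMSO 3, 12.5 in rapamycin 1, 9.16 in rapamycin 2 and 3.51 in rapamycin 3. TSC1 had 2, 9, 19, 9 and 9 reads in these cultures, so the ratios rest on few reads. In FPKM the same ratio was 1.82 to 2.0 in all 6 cultures. MLST8 exceeded MTOR by 1.77 to 11.5 times in RF per kb and was at 0.820 to 0.976 of it in FPKM. AKT1S1 exceeded RPTOR by 1.67 to 6.74 times in RF per kb and was at 0.647 to 0.848 of it in FPKM. RPTOR over RICTOR was above 1 in 5 of 6 cultures in RF per kb, from 2.56 to 17.7, and was 0.390 in rapamycin 1. RPTOR over MTOR, the core pair of mTORC1, was 0.518 to 2.77 in RF per kb with a median of 1.08, above 1 in 3 of 6 cultures, and 0.469 to 0.536 in FPKM.

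TSC1, which stabilises TSC2 (chr9:135766735-135822261, minus strand, GRCh37), had 0, 2 and 9 RF reads in DMSO cultures 1, 2 and 3 and 19, 9 and 9 in rapamycin cultures 1, 2 and 3. On the scaled level these were 0, 2.51 and 6.11 CPM in DMSO and 15.7, 10.9 and 29.9 CPM in rapamycin. Every rapamycin culture was above every DMSO culture. The 0 in DMSO 1 allows up to 9.23 CPM, beside 10.9 CPM for the lowest rapamycin value. That value and the highest DMSO value, 6.11 CPM, each rest on 9 reads. Their counting error is not included, so separation beyond counting error is not shown. Non-overlap of this direction was found in 5.24% of the 13329 tested genes for RF, and of the other direction, which no member showed, in 4.21%.

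TSC1 RNA was 60.8 to 62.0 CPM in DMSO and 57.0 to 60.6 CPM in rapamycin. All 3 rapamycin cultures were below all 3 DMSO cultures, as in 6.61% of tested genes, while 8.22% lay wholly above and no member did. The RNA difference was small, with a log2 fold change of -0.07 (SE 0.036, adjusted p = 0.766, edgeR), and its direction depended on the scale: in the authors' FPKM, TSC1 was 9.30 ± 0.371 in DMSO and 9.51 ± 0.454 in rapamycin (SD, n = 3), a log2 difference of 0.03 by limma. Its log2 TE was -4.65, -3.65 and -2.83 in DMSO and -1.65, -2.19 and -0.84 in rapamycin. These did not overlap (p = 0.1 in a two-sided exact permutation test, which is the lowest value that groups of 3 allow), and 4.8% of tested genes lay wholly above and 6.19% wholly below in TE.

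In the fit, TSC1 TE was higher in rapamycin by 2.08 on the log2 scale (SE 0.63, 95% interval 0.73 to 3.42), a 4.21-fold difference with an interval of 1.65 to 10.7 (adjusted p = 0.232, edgeR). RF alone gave a log2 difference of 2.34 (SE 1.06, 95% interval 0.11 to 4.58, adjusted p = 0.9999, edgeR). Leaving out any 1 culture kept the log2 difference in TE between 1.73 and 3.22. DESeq2's Wald test gave TSC1 an adjusted p of 0.00322 for a log2 difference of 1.97, in a test that called 1281 of 13329 genes; the other alternatives gave adjusted p-values from 0.0645 to 1. Of the tested members TSC1 had the fewest RF reads over the 3 DMSO libraries, 11.

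TSC2, the GTPase-activating partner that acts on RHEB (chr16:2097968-2139492, plus strand), had the highest RF counts of the members. Its RF was 394, 196 and 213 CPM in DMSO and 306, 155 and 163 CPM in rapamycin. The groups overlapped, since rapamycin 1 was above DMSO 2 and 3. TE differed by -0.32 (log2, SE 0.38, 95% interval -1.14 to 0.49, adjusted p = 0.770, edgeR), so a change of the size fitted for TSC1 lies outside the interval. RNA was 81.0 to 85.3 CPM in DMSO and 81.5 to 89.0 CPM in rapamycin, again overlapping.

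RHEB, the GTPase on which the TSC proteins act (chr7:151163098-151217206, minus strand), had RF of 52.3, 31.4 and 42.8 CPM in DMSO and 36.5, 50.8 and 19.96 CPM in rapamycin. The groups overlapped, and the lowest value, 6 reads, came from the smallest library, rapamycin 3. TE differed by -0.06 (log2, SE 0.34, 95% interval -0.80 to 0.68, adjusted p = 0.962, edgeR). RHEB RNA was 161 to 169 CPM in DMSO and 151 to 166 CPM in rapamycin. Pseudogenes derived from RHEB (RHEBP1, RHEBP2 and RHEBP3) are annotated on chromosomes 10 and 22, so its count of uniquely aligned reads is uncertain.

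**Figure D2:**
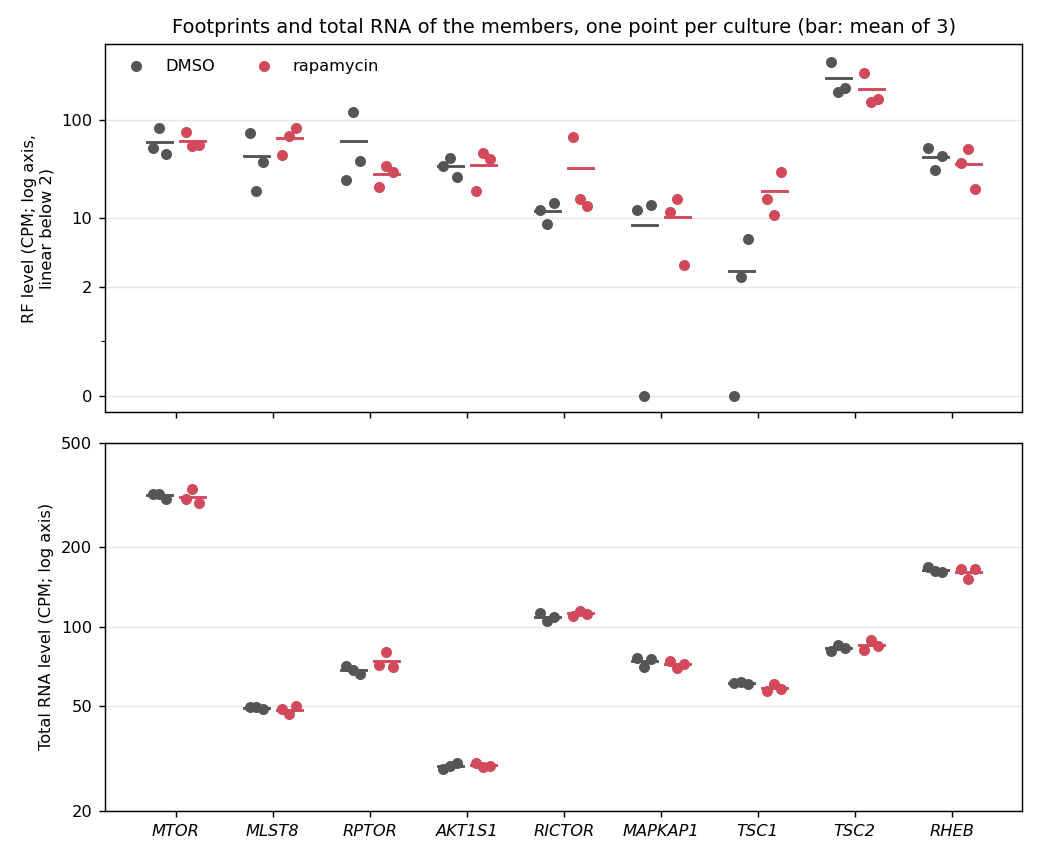
RF level (CPM, log axis that is linear below 2) and total RNA level (CPM, log axis) of the 9 tested members, one point per culture, DMSO in grey and rapamycin in red, with a bar at the mean of 3 cultures. TSC1 is the member whose RF points separate, at 0 to 6.11 CPM in DMSO and 10.9 to 29.9 CPM in rapamycin, while RNA points of each member lie close together.

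RICTOR, the scaffold that defines mTORC2 (chr5:38938022-39074504, minus strand), had RF of 12.3, 8.80 and 14.3 CPM in DMSO and 68.0, 15.7 and 13.3 CPM in rapamycin. Rapamycin 1, with 82 reads, stood apart, and rapamycin 3 was below DMSO 3, so the groups overlapped. RNA was 105 to 112 CPM in DMSO and 110 to 115 CPM in rapamycin. RICTOR TE was higher in rapamycin by 1.57 on the log2 scale (SE 0.62, 95% interval 0.25 to 2.89, adjusted p = 0.324, edgeR). Without rapamycin 1 the log2 difference was 0.23 (adjusted p = 0.896, edgeR), so this 1 culture set the value. RF alone gave 1.498 (log2, 95% interval -0.07 to 3.06, edgeR).

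MAPKAP1, also called SIN1, the other defining subunit of mTORC2 (chr9:128199672-128469513, minus strand), had 4, 0 and 20 RF reads in DMSO and 14, 13 and 1 in rapamycin. Its RF was 12.3, 0 and 13.6 CPM in DMSO and 11.6, 15.7 and 3.33 CPM in rapamycin, and the groups overlapped over nearly their whole range. The interval of its TE difference was the widest among the members, -1.12 to 2.01 around 0.45 (log2, SE 0.73, adjusted p = 0.844, edgeR). At this depth neither a fall nor a rise of 2-fold in MAPKAP1 can be told from no change. RNA was 70.6 to 76.1 CPM in DMSO and 69.7 to 74.2 CPM in rapamycin.

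RPTOR, the substrate-recruiting subunit of mTORC1 (chr17:78518619-78940171, plus strand), had RF of 24.6, 122 and 38.7 CPM in DMSO and 20.7, 33.9 and 29.9 CPM in rapamycin. DMSO 2, with 97 reads, stood far above the rest, and DMSO 1 lay within the rapamycin values, so the groups overlapped. RPTOR TE was lower in rapamycin, with a log2 difference of -1.34 (SE 0.58, 95% interval -2.58 to -0.10, adjusted p = 0.358, edgeR). Without DMSO 2 it was -0.53 (adjusted p = 0.515, edgeR). RPTOR RNA had the largest fitted difference among the members, 0.11 (log2, SE 0.053, adjusted p = 0.766, edgeR), from 66 to 70.8 CPM in DMSO and 70.1 to 80.0 CPM in rapamycin, which overlap.

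AKT1S1, an inhibitory mTORC1 subunit and AKT substrate (chr19:50372290-50381716, minus strand), had RF of 33.8, 41.5 and 26.5 CPM in DMSO and 19.1, 46.0 and 39.9 CPM in rapamycin. The highest and the lowest value were both from rapamycin cultures. TE differed by -0.04 (log2, SE 0.35, 95% interval -0.78 to 0.71, adjusted p = 0.980, edgeR), and the direction turned with the replicate block, where it was 0.05. RNA was 29 to 30.4 CPM in DMSO and 29.5 to 30.4 CPM in rapamycin.

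MTOR, the kinase itself (chr1:11166592-11322613, minus strand), had RF of 52.3, 82.9 and 44.8 CPM in DMSO and 75.4, 54.5 and 56.6 CPM in rapamycin. All 3 rapamycin cultures lay inside the DMSO range. TE differed by 0.10 (log2, SE 0.29, 95% interval -0.53 to 0.73, adjusted p = 0.915, edgeR). This interval, the narrowest among the members in this fit, corresponds to 0.694-fold to 1.66-fold. With limma voom and a variance for each library type, the interval was -1.56 to 1.85. RNA was 307 to 320 CPM in DMSO and 296 to 333 CPM in rapamycin, also overlapping.

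MLST8, which binds the kinase domain in both complexes (chr16:2254249-2259454, plus strand), had RF of 73.8, 18.9 and 37.4 CPM in DMSO and 43.9, 69.0 and 83.2 CPM in rapamycin. DMSO 1 lay within the rapamycin values and DMSO 2 and 3 below all of them. Its log2 TE was 0.62, -1.22 and -0.29 in DMSO and -0.07, 0.61 and 0.77 in rapamycin, and these overlapped (p = 0.3 in the exact permutation test). The fitted TE difference was 0.70 (log2, SE 0.50, 95% interval -0.36 to 1.77, adjusted p = 0.593, edgeR). MLST8 RNA was 48.7 to 49.5 CPM in DMSO and 46.6 to 50.0 CPM in rapamycin.

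DEPTOR, the inhibitory subunit of both complexes, had 0 RF reads in 5 of 6 cultures and 1 read in rapamycin 2. It did not reach the minimum of 10 reads summed over the RF libraries, so no TE was tested. Its RNA was 1.81 to 2.11 CPM in DMSO and 1.72 to 2.01 CPM in rapamycin, overlapping, and its FPKM lay at percentile 17.9 of tested genes. A footprint level could not be measured at this depth.

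**Figure D3:**
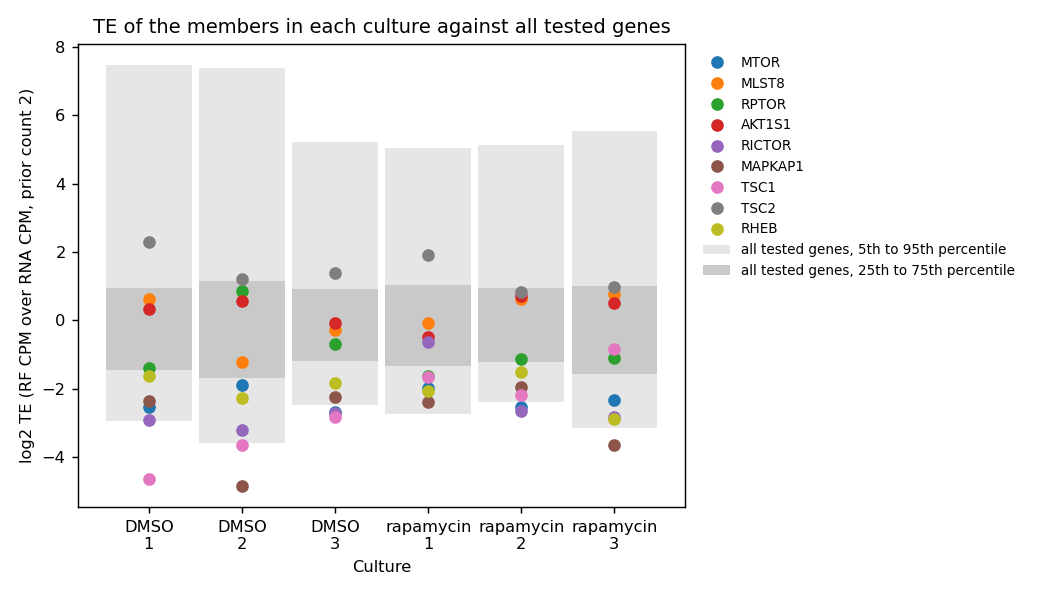
log2 TE (RF CPM over RNA CPM, with a prior count of 2) of the 9 tested members in each of the 6 cultures, over grey bars that span the 5th to 95th and the 25th to 75th percentile of all tested genes. TSC1 runs from -4.65 to -2.83 in the DMSO cultures and from -2.19 to -0.84 in the rapamycin cultures, and TSC2 lies at or above 0.82 in all 6.

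Over the 9 tested members, TE was lower in 4 and higher in 5, with a median log2 difference of 0.10, beside -0.06 over all 13329 tested genes. An unadjusted p under 0.05 was reached by RPTOR, lower, and by TSC1 and RICTOR, higher. At that threshold 6.42% of all genes tested were lower and 6.17% higher (edgeR). That share depended on how the spread was estimated: 12.6% of genes passed in either direction here, 6.74% with limma voom and a separate variance for each library type, 3.56% with the RF and RNA libraries of a culture paired, and 22.1% with DESeq2's Wald test. In the second and the third of these, TSC1 was the 1 member with p under 0.05, with log2 differences of 2.199 and 2.36. After adjustment 0 of the 9 members and 0% of all tested genes were called in TE by edgeR, against 1281 genes by DESeq2.

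For RF alone, 0 members were lower and 1, TSC1, was higher at an unadjusted p under 0.05, where the table as a whole had 1.92% lower and 1.76% higher, and adjusted calls were again 0% by edgeR. For total RNA, 0 members reached an unadjusted p under 0.05 in either direction, where the table had 2.51% lower and 3.32% higher, and adjusted calls were 0%. The fitted RNA differences of the 9 members ran from -0.07 to 0.11 on the log2 scale, and their 95% intervals together spanned -0.15 to 0.23, that is from 9.9% lower to 17% higher. Member RF had intervals reaching from -2.38 to 4.58 on the same scale. The biological coefficient of variation estimated across genes was 54.9% for RF and 5.31% for total RNA. In the TE fit, where both library types shared a spread, it was 24.4%, below that of RF alone.

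**Figure D4:**
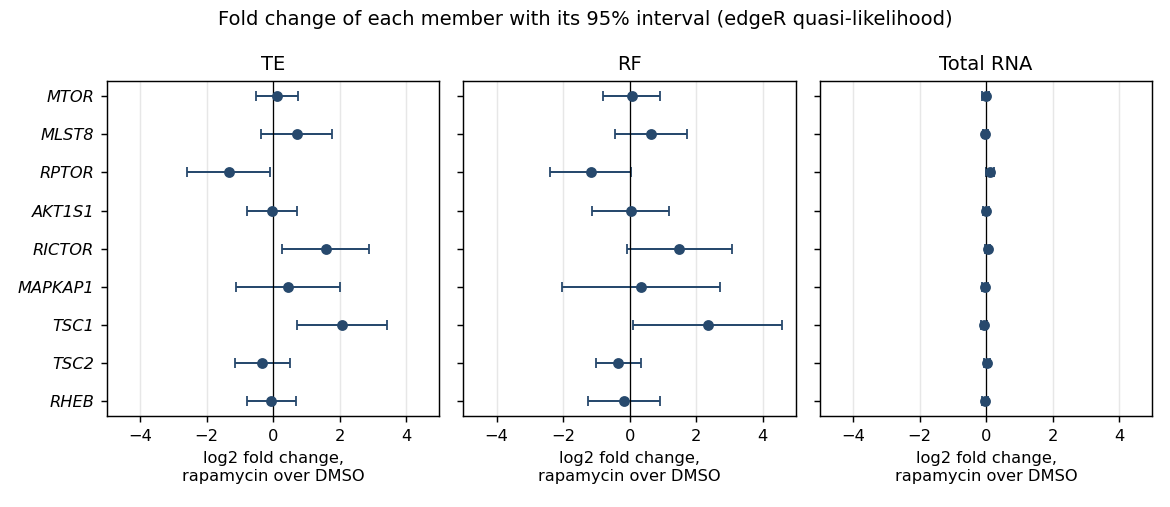
Log2 fold change of TE, RF and total RNA (rapamycin over DMSO) for the 9 tested members on the same axis; points are edgeR estimates and bars 95% intervals. The TE intervals of TSC1, RICTOR and RPTOR leave out 0 in this fit, but those of RICTOR and RPTOR include it with limma voom. The RF interval of TSC1 leaves out 0, and the RNA intervals all lie between -0.15 and 0.23.

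**Figure D5:**
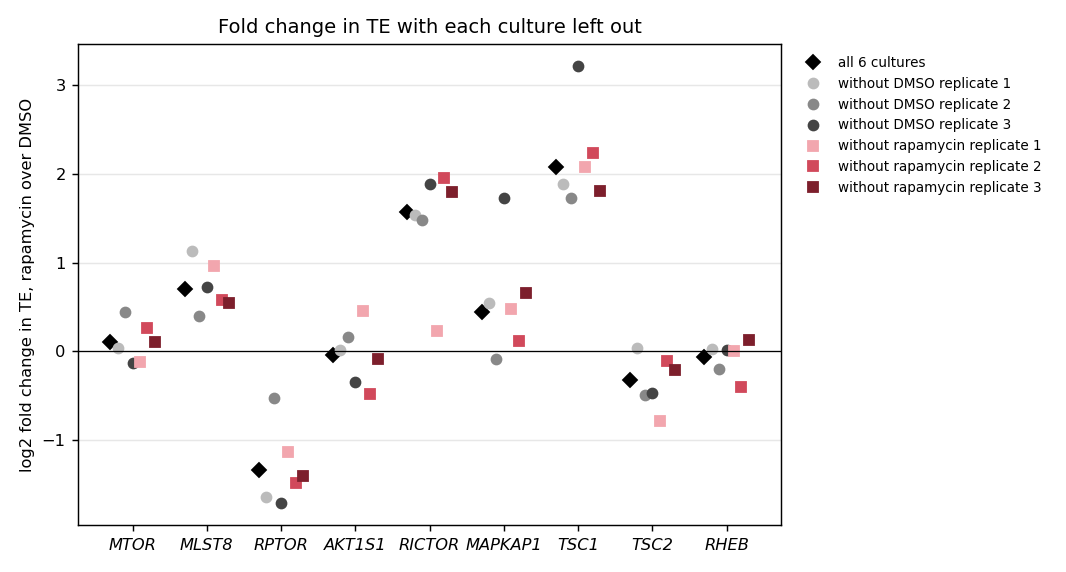
Log2 fold change in TE of each member with all 6 cultures (diamonds) and with each DMSO (circles) or rapamycin (squares) culture left out. TSC1 stays between 1.73 and 3.22, RICTOR drops to 0.23 without rapamycin 1, and RPTOR moves to -0.53 without DMSO 2.

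Isoform FPKM showed which transcripts made up each member's RNA, as shares of the member's summed isoform FPKM. MTOR was mostly 1 isoform, MTOR-201, with 83.7% to 86.3% over the 6 cultures. For RHEB, the full-length isoform RHEB-201, with a coding sequence of 552 bases, made up 23.4% to 25.9%, while RHEB-204, with one of 237 bases, made up 62.3% to 66.4%. For MAPKAP1, an isoform with 969 coding bases made up 39.4% to 46.0% and one with 1566 made up 29.7% to 33.3%. Each of these shares overlapped between treatments, but some other shares did not. Protein-coding isoforms together took 69.0% to 72.9% of RPTOR in DMSO and 73.4% to 74.6% in rapamycin. For MAPKAP1 they took 95.9% to 96.5% and 95.2% to 95.8%. AKT1S1 isoforms with at least 90% of the longest coding length took 97.1% to 99.0% and 99.4% to 100%. The leading isoform of DEPTOR, low in RNA, did not overlap either. How often such shares separate over all genes was not tested.

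RPTOR-201, which encodes the protein of 4005 coding bases, took 45.7% to 58.8% of RPTOR, and RICTOR-202 took 50.9% to 63.6% of RICTOR, with the highest share in rapamycin 1. The TSC genes were spread over more isoforms. TSC1 isoforms with at least 90% of the longest coding length together took 57.1% ± 3.43 in DMSO and 52.5% ± 2.27 in rapamycin (SD, n = 3), and for TSC2 they took 48.0% ± 2.61 and 51.8% ± 2.95. For TSC1 the cultures ran from 54.2% to 60.9% in DMSO and from 50.3% to 54.8% in rapamycin, and so overlapped. Isoform estimates come from short reads, and their error within a library is not given.

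Genes around the members were examined in 5 lists of 57 genes, of which 51 were tested. TE was lower in 26 and higher in 25, with a median log2 difference of -0.0036, and the unadjusted p was under 0.05 for 3 lower and 3 higher ones, none after adjustment (edgeR), beside 6.42% lower and 6.17% higher over all tested genes, so these shares lie near the background. Among 8 tested assembly and accessory factors, 3 were lower and 5 higher in TE, of which 0 and 2 had an unadjusted p under 0.05. RHEBL1, a relative of RHEB, had 0, 1 and 2 RF reads in DMSO and 6, 3 and 1 in rapamycin, with TE higher by 1.97 (log2, SE 0.79, adjusted p = 0.333, edgeR), at counts too low to place its level. TELO2, which helps assemble mTOR complexes, had RF of 6.15, 5.03 and 16.3 CPM in DMSO and 22.4, 15.7 and 46.6 CPM in rapamycin, overlapping by 1 culture, with TE higher by 1.04 (log2, SE 0.47, adjusted p = 0.384, edgeR). TBC1D7, the accessory subunit of the TSC complex, differed in TE by 0.54 (log2, 95% interval -0.66 to 1.74), or by 2.57 without DMSO 3 and 0.066 without DMSO 2. PRR5, an mTORC2 subunit, had 5 RF reads in all and was not tested.

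Of the 4 rapamycin-binding FKBPs tested, 2 were lower and 2 higher in TE, of which 1 and 0 had an unadjusted p under 0.05, against the same 6.42% and 6.17% of all tested genes. FKBP1A, the receptor of rapamycin, had RF of 89.2, 147 and 102 CPM in DMSO and 225, 121 and 120 CPM in rapamycin. These overlapped, and TE differed by 0.34 (log2, SE 0.34, 95% interval -0.38 to 1.07, adjusted p = 0.722, edgeR). FKBP1B, its close relative, had 2, 14 and 1 RF reads in DMSO and 0, 1 and 0 in rapamycin (adjusted p = 0.350, edgeR), counts that do not allow a fold to be read. DMSO 2 held 14 of its 18 reads. FKBP5 had TE of 0.88 above DMSO (log2, SE 0.59, adjusted p = 0.570, edgeR).

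Among the 9 tested energy and stress inputs and the 16 tested genes of GATOR, KICSTOR and amino acid sensing, no gene reached an unadjusted p under 0.05 in either direction. At that threshold 6.42% of all tested genes were lower and 6.17% higher in TE (edgeR). The largest departures by p-value were PRKAA1, the AMPK catalytic subunit, at -0.78 (log2 TE, SE 0.46) and CAB39, a partner of LKB1, at 0.45 (SE 0.27) in the former, and MIOS at -0.96 (SE 0.53) and DEPDC5, the GATOR1 subunit, at 1.05 (SE 0.52) in the latter. DDIT4, which activates TSC2 under stress, differed by 0.15 (log2 TE, 95% interval -0.59 to 0.88). In RUVBL2, an ATPase used in assembling mTOR complexes, TE differed by -0.30 (log2, SE 0.37).

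Of 14 tested mTORC1 and mTORC2 substrates, 6 were lower and 8 higher in TE, of which 2 and 1 had an unadjusted p under 0.05, where 6.42% and 6.17% of all tested genes did. RPS6KB1, the kinase S6K1, had 5, 32 and 17 RF reads in DMSO and 0, 4 and 0 in rapamycin, and its groups did not overlap in RF, as in 4.21% of tested genes in this direction (TE adjusted p = 0.231, edgeR). GRB10, an adaptor that mTORC1 phosphorylates, had RF of 9.23, 1.26 and 4.76 CPM in DMSO and 13.3, 19.4 and 13.3 CPM in rapamycin, without overlap, as in 5.24% of tested genes in this direction. These levels rest on 3, 1 and 7 reads in DMSO and 16, 16 and 4 in rapamycin. Separation beyond counting error is therefore not shown. RF alone gave a log2 difference of 1.71 (95% interval -0.46 to 3.88, edgeR). GRB10 TE was higher by 1.80 (log2, SE 0.51, adjusted p = 0.231, edgeR). EIF4EBP1, the inhibitor of eIF4E, differed by 0.84 (log2 TE, 95% interval -0.49 to 2.17), and this was 3.03 without DMSO 3 and 0.095 without rapamycin 1. AKT1, an mTORC2 substrate, differed by 0.16 (log2 TE, 95% interval -0.98 to 1.30). RNA of the 51 tested genes in the 5 lists gave 0 calls after adjustment (edgeR), and 0 of them had an unadjusted p under 0.05. Over all tested genes, total RNA had 0% called after adjustment. Without adjustment 2.51% were lower and 3.32% higher.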

How the data were processed

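For both library types the authors used HISAT2 with GRCh37 and then featureCounts, which gave exonic reads with a unique alignment per protein-coding gene, and they deposited these raw counts for 6 RF and 6 total RNA libraries. For total RNA, FPKM of genes and of isoforms, made with Cufflinks 2.2.1 (cuffnorm), were also deposited by the authors. Other versions are not given in the sources used here. The authors' own ratios, fold changes and p-values from RiboDiff were not used, nor was a column named fpkm in the count table, which equalled the mean DMSO RNA count in all 20212 genes.

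Samples were grouped by their labels. Counts were scaled by TMM within each library type, and genes whose counts summed to 10 or more over RF and over RNA libraries (13329 genes) were tested in R 4.3.3 with edgeR 4.0.16 (quasi-likelihood, robust). TE change was the type-by-treatment interaction, and RF and RNA were also fitted alone. Standard errors are the log2 difference over the square root of F. p-values were Benjamini-Hochberg adjusted over all tested genes. DESeq2 1.42.0 and limma 3.58.1 served as alternatives, with other scalings, filters, blocks and left-out cultures. Per-culture log2 TE, with a prior count of 2, was compared by an exact permutation test. Scripts were tested on simulated data. Python used pandas 2.3.3 and scipy 1.17.1.

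All 10 members, and from each of 5 lists 1 gene in each direction with the smallest TE p-value plus FKBP1A, TBC1D7, TELO2, PRR5, DDIT4, RHEBL1, EIF4EBP1, RPS6KB1 and AKT1, were named. The members and lists were chosen with earlier results of these data known. The labels call the cultures biological replicates. By their labels, RF and RNA libraries with the same name and number share a culture. Replicate numbers showed no pairing of DMSO with rapamycin. Coding lengths and gene positions came from GENCODE for GRCh37, whose version differs from the authors'. Members also overlap genes on the opposite strand (MTOR with ANGPTL7, RICTOR with OSMR, MLST8 with BRICD5, TSC1 with GFI1B, TSC2 with PKD1), and whether counting used strand is not given in the sources used here, so shared reads there cannot be told apart.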

Additional observations from a re-analysis of the deposited data

How the results depend on the processing

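With each culture left out in turn, genes with an adjusted p under 0.05 in TE numbered 0 to 374 lower and 0 to 70 higher, the highest without DMSO 3, and members with an unadjusted p under 0.05 numbered 1 to 3. For RF these were 0 to 1 lower, 0 to 6 higher and 0 to 2 members, and for total RNA 0 to 6 lower, 0 to 875 higher (without DMSO 3) and 0 to 2 members. Without DMSO 3, the DMSO RNA libraries were 1 and 2, those listing fewer genes with a read. Members whose cultures did not overlap in TE numbered 1 to 3, where groups of 3 and 2 did not overlap for 19.2% to 27.3% of all tested genes, against 11% with all cultures. DESeq2's Wald test called 606 genes lower and 675 higher in TE, 1 and 4 in RF, and 4 and 25 in total RNA. Without the filter on low counts, RF had 10 calls lower and 10 higher and 3 members, and total RNA had 1 member. The culture block and limma voom each left 1 member in TE with an unadjusted p under 0.05. In these 2 settings 3.56% and 6.74% of all tested genes passed in either direction. limma-trend on FPKM called 1 gene higher in total RNA at each of its 3 settings. With the replicate block, TE had 1 gene higher and RF 2 lower, 4 higher and 0 members. For left-out cultures, unfiltered fits and RF with the replicate block, the share of all genes with an unadjusted p under 0.05 is not given. Their counts of members at that threshold therefore cannot be set against a background. The replicate numbers showed no pairing of the treatments: deviations of same-numbered RF libraries correlated by -0.12 to -0.06 and of RNA libraries by -0.22 to -0.11. For the RF and RNA library of 1 culture the correlations were -0.096 to 0.0081. This measure therefore did not show that pairing either, which was taken from the labels.

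Signs turned only in values with p of at least 0.178 without adjustment. AKT1S1 became 0.053 in TE and -0.011 in RF with the replicate block, and in RNA -0.013 without the filter and -0.024, -0.026 and -0.024 by limma-trend on FPKM, where TSC1 RNA became 0.028, 0.031 and 0.028 and TSC2 RNA -0.050, -0.052 and -0.050. With cultures left out, TE ran from -0.13 to 0.44 for MTOR, -0.48 to 0.45 for AKT1S1, -0.087 to 1.73 for MAPKAP1, -0.78 to 0.036 for TSC2, -0.41 to 0.13 for RHEB, -0.52 to 0.22 for RUVBL2, -0.11 to 0.61 for FKBP1A, -0.13 to 0.43 for DDIT4 and -0.34 to 1.17 for AKT1. Without a change of sign, TE ran from 0.40 to 1.13 for MLST8, 0.095 to 3.03 for EIF4EBP1, 0.066 to 2.57 for TBC1D7, 0.74 to 2.14 for TELO2, 0.45 to 1.87 for FKBP5, -1.48 to -0.53 for PRKAA1 and -1.45 to -0.44 for MIOS. RF ran from -0.15 to 0.38 for MTOR, -0.26 to 0.34 for AKT1S1, -0.26 to 1.04 for MAPKAP1, -0.75 to 0.034 for TSC2 and -0.51 to 0.063 for RHEB. RNA ran from -0.068 to 0.020 for MTOR, -0.044 to 0.0053 for MLST8, -0.010 to 0.025 for AKT1S1, -0.0058 to 0.054 for TSC2 and -0.054 to 0.011 for RHEB. The causes were not tested. RF held 0 to 314 reads for a member in a DMSO library.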
